A study of Marchantia polymorpha with 6 samples.

Results

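The Tc1/Mariner copies described here are the rows of the authors' element annotation of the liverwort Marchantia polymorpha with class DNA and superfamily code DTT on chromosomes 1 to 8. There were 753 of them among 89262 annotated elements, and 112 further copies lay on the male sex chromosome V. The series holds 6 libraries of polyA RNA from thalli (the haploid plant body) at 14 days, all grown on agar medium in continuous white light. In 3 of them the plants were Tak-1 wild type, a male line, and in the other 3 they were Mpmet-3, named for MpMET, the CG methyltransferase gene of this species. The labels do not say what lesion Mpmet-3 carries. Both files used were annotations of the assembly MpTak1 v5.1 revision 2, with no value for any library. No effect of the mutation could therefore be measured, and every result below is a property of the annotated Tak-1 genome.

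Tc1/Mariner elements are DNA transposons that a transposase excises and inserts elsewhere. They end in short inverted repeats and insert at TA dinucleotides, which are duplicated on insertion. In flowering plants they are also known from short non-autonomous derivatives of the Stowaway type. In plants, transposons are as a rule kept silent by DNA methylation, including methylation at CG sites. The annotation used here came from EDTA, a pipeline that finds elements by their structure and then masks the genome with the resulting library of family entries. A copy named structure-based below carried an identifier beginning with TE_struc, and a homology-based copy one beginning with TE_homo.

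A single family made up most of the group. TE_00001142 had 479 of the 753 autosomal copies (63.6%) and 489 kb of the 602 kb covered (81.2%). It was present on 8 of 8 autosomes, with 42 to 87 copies on each, and supplied between 78.2% of the DTT bp on chromosome 5 and 86.9% on chromosome 1. The other 25 family labels shared 274 copies and 113 kb. Among them TE_00000390 was the largest, with 64 copies and 15733 bp (2.61% of DTT bp). It was followed by TE_00000786 with 42 copies and 2.05% of DTT bp, TE_00000394 with 44 copies and 1.52%, and TE_00000483 with 14 copies and 1.22%. TE_00000698 had 46 copies but only 6657 bp, 1.11% of the total. The next families by covered bp were TE_00000379 with 15 copies, TE_00000349 with 13, and TE_00000697 and TE_00000554 with 6 each. The remaining 16 labels had 1 copy each, apart from TE_00000716 with 9. In 6 of these single-copy cases the label was only the position of the copy.

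Copies of TE_00001142 gathered at 1 length. The longest was 1387 bp and the shortest 85 bp, and the single most common length was 1347 bp, shared by 113 copies (23.6%). Lengths from 1340 to 1350 bp took in 193 copies (40.3%), a class set after the lengths were seen. A second, smaller peak lay at 340 to 350 bp with 37 copies, 24 of them of exactly 348 bp. Averaged over the 8 autosomes the median length was 1321 ± 17.9 bp (SD), and it differed little between autosomes, from 1297 to 1344 bp. On V the same modal length appeared, with 32 of 91 copies (35.2%) at 1347 bp, and 8 copies had 348 bp.

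**Figure D1:**
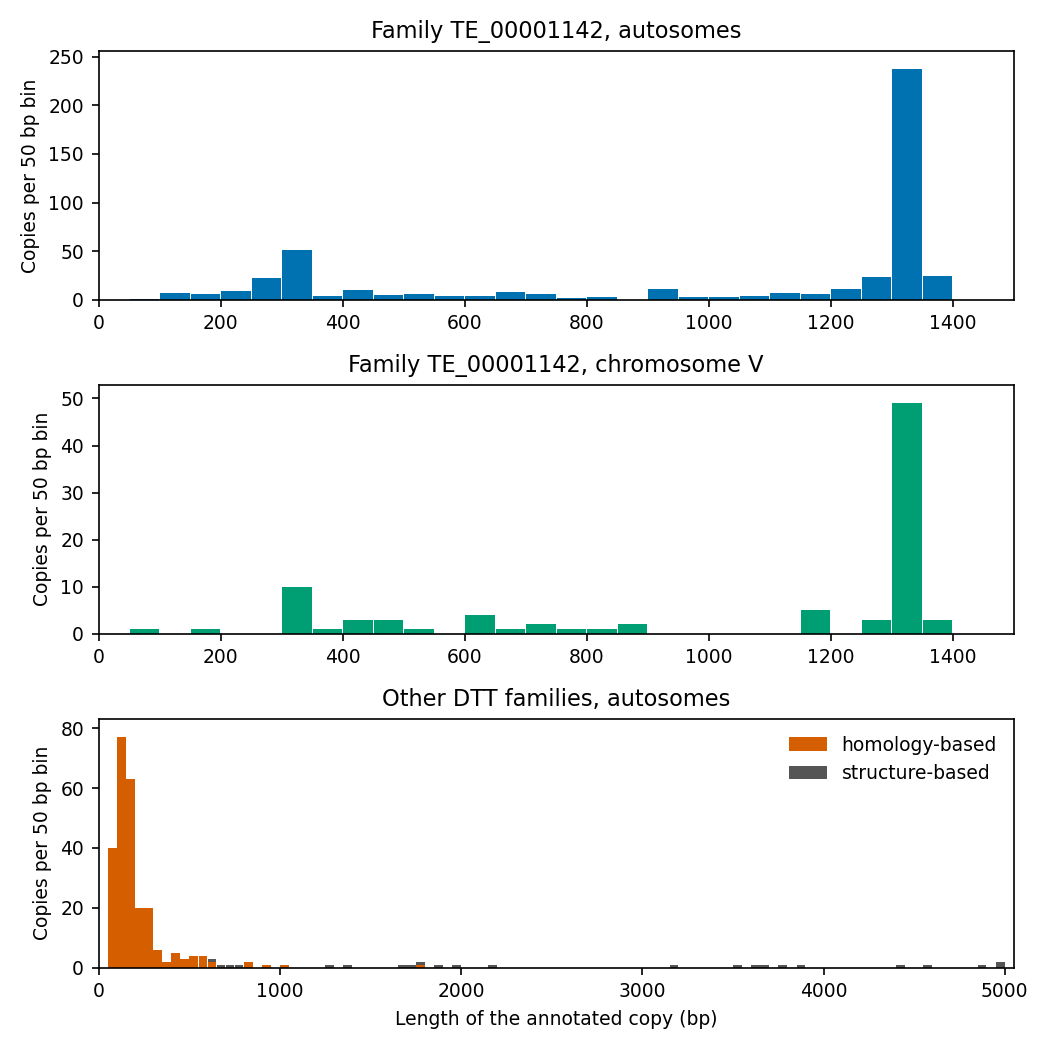
Lengths of annotated DTT copies in bins of 50 bp; bars count copies, and the lowest panel separates homology-based from structure-based copies. TE_00001142 peaks at 1347 bp, with a smaller peak near 348 bp, on the autosomes and on V, whereas the homology-based copies of the other families are short (median 153 bp).

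The copies of TE_00001142 lay on bases that the same annotation also assigned to LTR retrotransposons, elements that move through an RNA copy. LTR entries claimed 86.4% of the bp of the family, and 309 of its 479 copies (64.5%) were covered over their whole length by elements of other superfamilies. Only 38 copies (7.93%) shared no base with another superfamily. The other DTT families were the opposite, with 255 of 274 copies (93.1%) sharing no base and 4.84% of their bp claimed by LTR entries. Among the DNA transposons most like DTT, LTR entries claimed 0.0436% of the bp of hAT elements (DTA), 9.33% of CACTA (DTC) and 3.16% of Mutator (DTM). Structure-based LTR elements, which EDTA annotates as whole units, overlapped only 2 copies of TE_00001142. The LTR entries on these bases were therefore nearly all homology-based.

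The LTR entries on and beside the copies most often stood in the same order. Around the 193 autosomal copies of 1340 to 1350 bp, 5 entries were found within 6 kb of at least 50% of copies in a constant orientation. Positions are counted from 0 at the first base of the copy along its own strand. The terminal-repeat entry TE_00001097_LTR, of no LTR superfamily, accompanied 189 copies (97.9%) on the opposite strand and most often ended at position −47. An internal entry of the same class, TE_00001028_INT, accompanied 184 copies (95.3%) on the same strand. It ran from −67 to 998 in 125 of them. The Gypsy internal entry TE_00000563_INT was present at 187 copies (96.9%) on the opposite strand, and began at 995 in 137 of them. With a modal end at 2674, it reached well beyond the copy. Further on came the CACTA entry TE_00001248 at 134 copies (69.4%), with a most frequent extent of 2113 to 3494 in 17 of them, and the Mutator entry TE_00001300 at 111 copies (57.5%), with a most frequent extent of 3036 to 3746 in 14. At any single position TE_00001248 covered at most 56.5% of the 193 copies and TE_00001300 at most 40.9%. The terminal repeat started most often at −352, in only 17 copies. Joined from these most frequent positions, the arrangement from there to the end of the Mutator entry spanned 4.10 kb. It held the labels Tc1/Mariner, Gypsy, CACTA and Mutator besides LTR entries of no superfamily. How many single copies carried the whole arrangement was not counted.

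**Figure D2:**
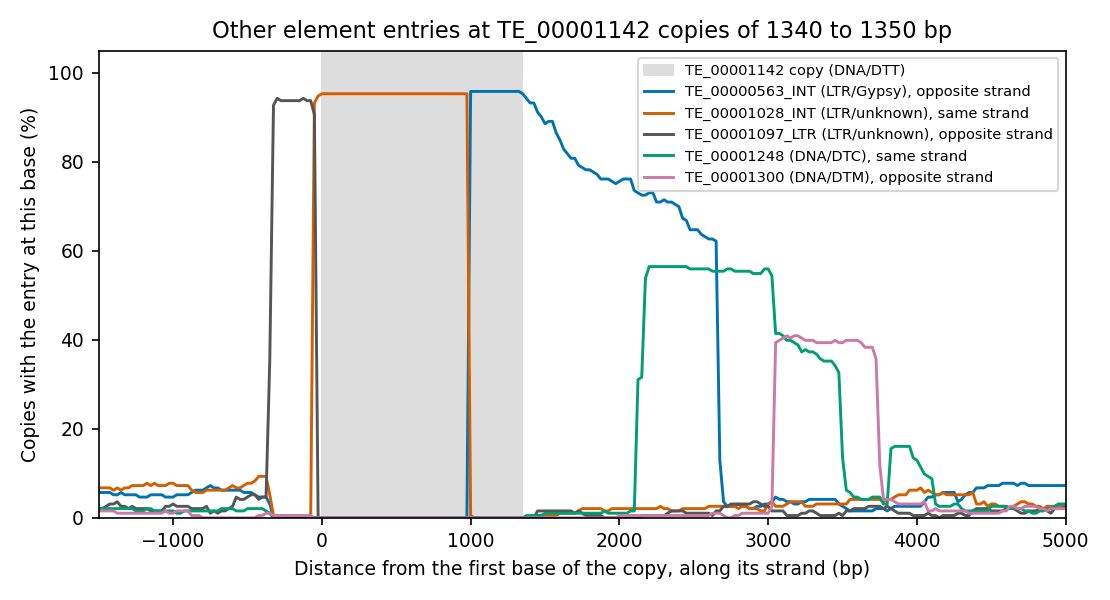
Share of the 193 autosomal TE_00001142 copies of 1340 to 1350 bp at which each other entry was annotated, by distance in bp from the first base of the copy along its strand. The grey band marks the copy; TE_00001028_INT and TE_00000563_INT reach 95.3% and 95.9% of copies at their peaks and meet near position 998.

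The same boundary appeared in the short copies. A copy of 1347 bp has 348 bp left beyond the usual end of TE_00001028_INT, and 348 bp was the second peak of lengths. Of the 37 copies of 340 to 350 bp, 36 followed directly on the end of TE_00001028_INT, with no base between. In 29 of these 37 copies, TE_00000563_INT began 4 bp before the copy. Over all 479 autosomal copies, 466 (97.3%) overlapped or lay within 100 bp of at least 1 of the 3 LTR entries, and 338 (70.6%) of both internal ones. On V the shares were 91 of 91 and 64 of 91 (70.3%), and the entries had the same modal positions, −67 to 998 for TE_00001028_INT and 995 to 2674 for TE_00000563_INT. The relation was not exclusive from the other side. Of the 986 autosomal placements of TE_00001028_INT 40.5% lay at a TE_00001142 copy, as did 46.3% of the 875 of TE_00000563_INT and 26.0% of the 1267 of TE_00001097_LTR. The label Tc1/Mariner is thus shared, for most of the bp in the group, with LTR labels on the same bases. Which label is right was not tested, and this family is called by its entry name below.

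DTT copies as a whole overlapped or adjoined LTR elements more often than the other DNA transposons did. On average 68.1% ± 6.33 (SD, n = 8 autosomes) of DTT copies overlapped or lay within 100 bp of an LTR copy, against 21.9% ± 2.05 of DTA, DTC and DTM copies together. The share was higher on 8 of 8 autosomes (2-sided exact permutation test by flipping signs, p = 0.00781, the lowest value possible with 8 autosomes; adjusted p = 0.0234 over 24 tests). TE_00001142 alone gave 98.1% ± 1.23. Without this family the share was 15.5% ± 7.21, below the other DNA transposons on 7 of 8 autosomes (adjusted permutation p = 0.0721). The sign of the comparison thus came from 1 family. For DTT as a whole, overlap alone gave 59.4% against 9.27%. The comparison therefore restates in large part the shared bases described above.

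The families other than TE_00001142 were mostly short fragments. Their 251 homology-based copies had a median length of 153 bp, and the longest was 1750 bp. By family the medians of homology-based copies ran from 82.5 bp to 263 bp. TE_00000698 had 46 copies between 82 and 169 bp and a median of 150.5 bp. TE_00000394 copies reached no more than 309 bp, with a median of 197.5 bp. In TE_00000390 and TE_00000786 the medians were 122 and 173 bp, although each had 1 structure-based copy of 3153 and 3894 bp. The mean of chromosome medians over these families was 160.1 ± 14.1 bp (SD, n = 8), against 342 ± 19.2 bp for all elements that are not DTT. They were shorter on 8 of 8 autosomes (adjusted exact permutation p = 0.0268). With TE_00001142 included the group had a mean of chromosome medians of 735 ± 308 bp and was longer than the other elements on 8 of 8 (adjusted exact permutation p = 0.0234). It was also longer than DTA (283 ± 19.7 bp), DTC (290.2 ± 18.9 bp) and DTM (239.8 ± 12.7 bp) on 8 of 8 autosomes each, at the same adjusted p. Without TE_00001142 the other families were shorter than each of these superfamilies on 8 of 8 autosomes (adjusted exact permutation p = 0.0268).

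Structure-based copies were few and long. There were 23 of them (3.05% of copies) with a median of 2158 bp, and they held 54.9% of the DTT bp outside TE_00001142. TE_00001142 itself had none, and neither did V. The strand was missing for all 23 and for no other autosomal copy. The longest was a copy of TE_00000554 of 4979 bp on chromosome 8 (4376083 to 4381061), which touched an exon of Mp8g04150. A copy of TE_00000697 on chromosome 3 (3746376 to 3751348, 4973 bp) came next and lay wholly in Mp3g03790. The third, on chromosome 6 (10614624 to 10619490, 4867 bp), lay outside genes, and LTR entries claimed 47.1% of it. On chromosome 2 a TE_00000349 copy of 4552 bp (24230344 to 24234895) overlapped Mp2g22070. The next 6 were a copy of 4439 bp on chromosome 5 and copies of TE_00000786 (3894 bp), TE_00001037 (3794 bp), TE_00001099 (3650 bp), TE_00000962 (3621 bp) and TE_00001031 (3506 bp). Of the 23 structure-based copies 13 (56.5%) touched an exon, 1 lay in an intron and 9 outside genes. Among the 251 homology-based copies of these families, 24 (9.56%) touched an exon and 221 (88.0%) lay outside genes.

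By the spacing of neighbours and by counts per window TE_00001142 was clustered, and the other families were nearer to an even scatter. The clustering ratio used here divides the median distance between neighbouring copies by the median that independent uniform placement at the same density would give. A value of 1 is that of uniform placement, and lower values mean a shorter median distance. Being based on a median, the ratio can stay near 1 while a minority of the distances are short. It was 0.492 ± 0.164 (SD, n = 8 autosomes) for DTT, 0.241 ± 0.133 for TE_00001142 alone and 0.890 ± 0.171 for the other families. Counts per 100 kb window had a variance 4.96 ± 2.07 times their mean for TE_00001142 and 1.37 ± 0.191 times for the others. Of the 2078 windows, 1806 (86.9%) held no TE_00001142 copy and 1861 (89.6%) no copy of the other families, which had fewer copies. The share of empty windows thus does not by itself tell these sets apart. The ratio of DTT was higher than that of DTA (0.312 ± 0.0950) on 7 of 8 autosomes (adjusted exact permutation p = 0.0417). The differences from DTC (0.561 ± 0.172) and DTM (0.391 ± 0.0832) did not pass (adjusted exact permutation p = 0.531 and 0.281). The call against DTA was lost when any autosome but chromosome 5 was left out, and DTT had the lower ratio among copies of at least 200 bp. Without TE_00001142 the ratio was above that of DTA and DTM on 8 of 8 autosomes and of DTC on 7 of 8 (adjusted exact permutation p = 0.0268, 0.0268 and 0.0417). The ratio of TE_00001142 alone was below that of DTC on 8 of 8 autosomes (adjusted exact permutation p = 0.0134). Its differences from DTA and DTM did not pass (adjusted exact permutation p = 0.304 and 0.0521).

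Both sets also had close neighbours. Of the TE_00001142 copies 196 (40.9%) lay within 10 kb of another of the family, and of the other copies 76 (27.7%) within 10 kb of another of these families. On chromosome 7 the order was the reverse, with 28.6% of TE_00001142 and 54.8% of the other copies.

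Runs of copies made the clusters visible. When neighbours at most 10 kb apart were joined, the 753 copies fell into 557 runs, 476 of them single copies. The largest run held 23 copies over 106 kb of chromosome 2 (14256618 to 14362392). The second held 15 copies over 54.6 kb of chromosome 8 (9279933 to 9334482), and the third 11 copies over 36.5 kb of chromosome 1 (14395883 to 14432405). Each of these 3 runs consisted of TE_00001142 alone. All 152 pairs of neighbouring TE_00001142 copies at most 10 kb apart were split almost evenly by strand, 73 on the same and 79 on opposite strands. No orientation prevailed within the clusters. For the other families 41 such pairs were found, of which 36 joined copies of the same family, 28 on the same strand and 8 on opposite strands.

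The clusters lay near the middle of the autosomes. When each autosome was cut into 5 equal parts, TE_00001142 covered 0.669% ± 0.334 (SD, n = 8) of the middle part, against 0.0729% ± 0.0356 of the first and 0.0813% ± 0.0498 of the last. On 6 of 8 autosomes the middle part was the highest; on chromosome 5 it was the second part (0.869%) and on chromosome 3 the fourth (0.441%). For DTT as a whole the middle part had 0.736% ± 0.350 and the mean of the 2 outer parts was 0.132% ± 0.0360. The outer parts were lower on 8 of 8 autosomes (exact 2-sided sign-flip permutation p = 0.00781; adjusted p = 0.0234). The other families showed no such profile, with 0.0664% ± 0.0615 in the middle and a mean of 0.0550% ± 0.0186 in the outer parts (adjusted exact permutation p = 0.665). All other elements together covered 24.1% ± 4.88 of the middle part and 23.0% ± 4.49 of the first, and genes 33.7% ± 3.12 and 33.0% ± 4.29.

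**Figure D3:**
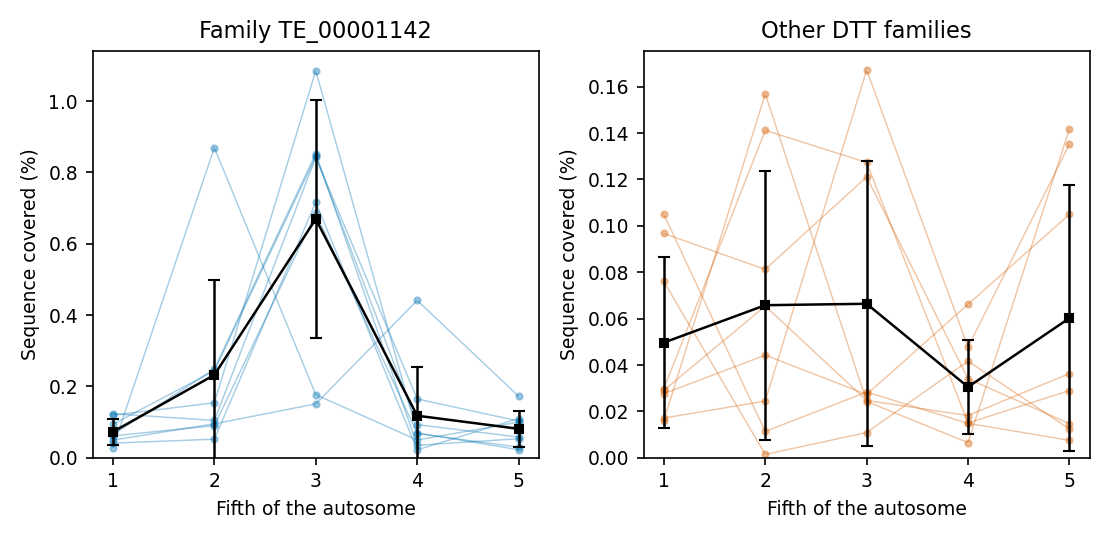
Percent of each of 5 equal parts of an autosome covered by TE_00001142 (left) and by the other DTT families (right, on a smaller scale). Coloured points and lines are the 8 autosomes, black squares and bars their mean ± SD; the mean of TE_00001142 rises to 0.669% in the middle part, with chromosomes 5 and 3 peaking beside it, and the means of the other families stay between 0.0305% and 0.0664%.

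A single stretch of 1 Mb held a large share of TE_00001142 on most autosomes. The stretch with most copies, found in steps of 100 kb, held 228 of the 479 copies (47.6%) over the 8 autosomes, in 3.27% to 4.69% of the length of each. The share was highest on chromosome 2, with 48 of 87 copies (55.2%) between 13500001 and 14500000. Chromosome 6 followed with 31 of 57 (54.4%) between 9600001 and 10600000, and chromosome 8 with 29 of 54 (53.7%) between 8700001 and 9700000. Chromosomes 1, 4, 5 and 7 had between 44.4% and 48.6%. Chromosome 3 stood below these with 10 of 45 copies (22.2%), and its densest stretch was centred at 65.6% of its length, against 38.1% to 52.6% on the other autosomes. Since these stretches were chosen for their copies, the counts are a description. They held 51 to 89 genes each and were thus not empty of genes, although the chromosome averages were 89.0 to 95.4 per Mb. Elements other than DTT covered 32.2% ± 7.66 (SD, n = 8) of them, against 23.8% ± 2.66 of the whole autosomes, and on chromosome 3 they covered less than the chromosome average (20.3% against 22.6%). Other superfamilies claimed 86.5% of the bp of TE_00001142, and LTR entries at its copies ran on beyond them. Stretches chosen for these copies therefore gain such cover by construction, and how much of the difference this makes up was not tested. Of the 274 copies of other DTT families 19 (6.93%) fell in the 8 stretches, which made up 3.84% of the autosomal length, and 9 of the 19 were on chromosome 5.

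Relative to genes, TE_00001142 and the other families differed as well. Without a split by family, DTT had 2.55% ± 1.79 (SD, n = 8) of its bp in exons, 1.87% ± 1.35 in introns and 95.6% ± 2.53 outside genes. For all other elements the values were 3.07% ± 0.637, 2.03% ± 0.313 and 94.9% ± 0.804. None of the 3 differences passed the test (adjusted exact permutation p = 0.553, 0.774 and 0.571). The mean hid opposite patterns. TE_00001142 had 0.0424% ± 0.120 of its bp in exons and none in introns, and only 1 of its 479 copies touched a gene. That is lower than the other elements on 8 of 8 autosomes in exons and in introns (adjusted exact permutation p = 0.0134 for both). The other families had 14.2% ± 9.68 of their bp in exons and 11.6% ± 9.97 in introns. Most of this came from the 23 structure-based copies, which had 12492 of 61999 bp (20.1%) in exons and 12.8% in introns. The 251 homology-based copies had 2726 of 50935 bp (5.35%) in exons, 4.02% in introns and 90.6% outside genes. By autosome these homology-based copies averaged 91.5% ± 7.41 outside genes, and they were not tested by themselves. All 274 copies of the other families together had 74.1% ± 16.7 of their bp outside genes. This joint share was lower than that of other elements on 7 of 8 autosomes (adjusted exact permutation p = 0.0417). The joint exon and intron shares gave adjusted exact permutation p = 0.0625 and 0.0563. The split by family was made after these values were seen.

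**Figure D4:**
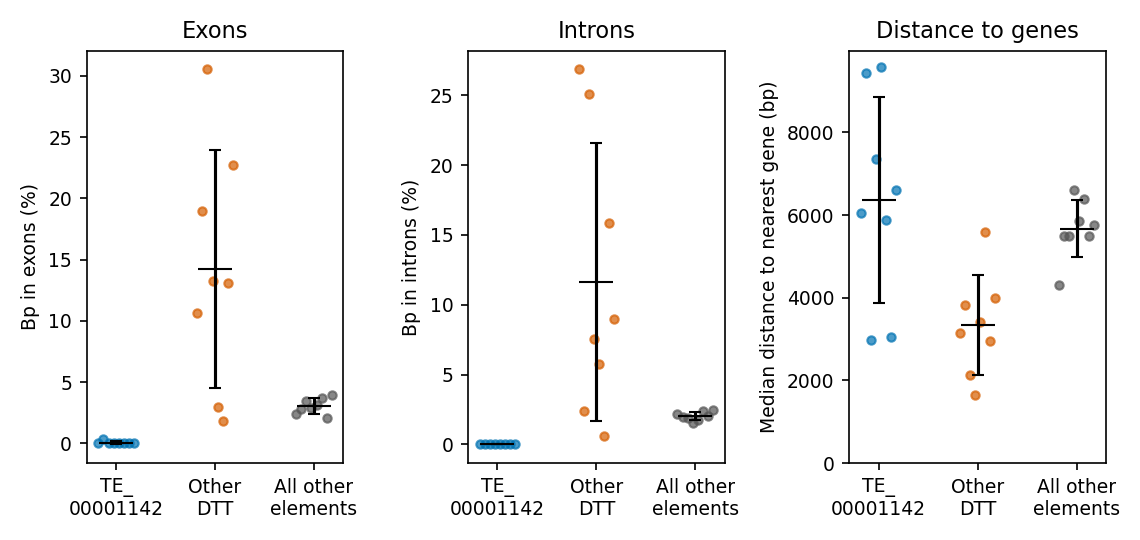
Percent of bp in exons, percent of bp in introns and median distance of copies outside genes to the nearest gene, in bp, on each of the 8 autosomes (points) with mean ± SD (black). TE_00001142 sits at or near 0 in exons and introns on every autosome, while the other DTT families spread widely and lie nearer to genes than all other elements.

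Against the other DNA transposons, DTT had less exonic sequence than DTC (7.90% ± 2.07, SD, n = 8) and DTM (7.26% ± 1.94) on 8 of 8 autosomes each (adjusted exact permutation p = 0.0234 for both). Against DTA (2.38% ± 1.26) the difference did not pass (adjusted exact permutation p = 0.852). Without TE_00001142 the exon share was above DTC and DTM on 6 of 8 autosomes each, with adjusted p = 0.210 and 0.100 in the exact permutation test. The lower share of the whole group was thus not seen once TE_00001142 was removed. This rested in large part on the 23 structure-based copies, with 22.7% ± 16.9 of their bp in exons. The homology-based copies of the other families had 4.71% ± 3.70. Homology-based copies of DTC had 2.83% and those of DTM 5.43%, and the other families were not tested against these.

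Copies outside genes were a few kb from the nearest gene. The median distance was 4884 ± 1340 bp (SD, n = 8) for DTT and 5672 ± 696 bp for all other elements, a difference that did not pass the test (adjusted exact permutation p = 0.281). TE_00001142 had 6370 ± 2499 bp and the other families 3339 ± 1212 bp. The latter was nearer to genes than other elements on 8 of 8 autosomes (adjusted exact permutation p = 0.0268). It did not pass against DTA (2934 ± 199 bp), DTC (4192 ± 366 bp) or DTM (3150 ± 412 bp), with adjusted exact permutation p = 0.429, 0.100 and 0.703. Of all DTT copies outside genes, 4.69% ± 2.11 lay within 1 kb before a gene start. Within 1 kb after a gene end lay 5.69% ± 3.44. For other elements the shares were 4.05% ± 0.684 and 4.80% ± 0.346 (adjusted exact permutation p = 0.571 for both). DTT copies lay near a gene start less often than DTA (10.3% ± 3.77) and DTM copies (8.42% ± 1.41), each on 7 of 8 autosomes (adjusted exact permutation p = 0.0469 for both). They also lay farther from genes than DTA copies (2934 ± 199 bp, 7 of 8 autosomes, same adjusted p). These 3 calls were close to the threshold and were lost when coding genes alone or copies of at least 200 bp were used, and when any single autosome was left out, except chromosome 4 for the first and chromosome 3 for the other 2.

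Few genes carried DTT sequence. On the autosomes 36 of 19105 genes had DTT bp in an exon and 16 in an intron, 53 had some within 1 kb upstream and 52 within 1 kb downstream, 117 genes in all. Of the 15510 exonic bp 80.5% came from structure-based copies and 1.88% from TE_00001142. Among the 25 homology-based copies that touched an exon, TE_00001142 included, 12 lay on the strand of the gene and 13 on the other.

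The 10 genes with most exonic DTT sequence were all coding genes. At the top was Mp3g03790 on the minus strand of chromosome 3 (3745437 to 3759678), where 1 copy of TE_00000697 took up 2696 of the 7749 exonic bp and 2277 intronic bp. Mp8g18080 (chromosome 8, 20242113 to 20246041, minus strand), matched by number and length to MpBHLH22, named as a basic helix-loop-helix transcription factor, had 1794 of its 2306 exonic bp (77.8%) in 1 copy of TE_00001031. Mp2g22070 followed with 1629 bp (39.8% of its exonic bp) and Mp2g13240 with 1376 bp (47.4%), from TE_00000349 and TE_00001099. Mp1g03130 had 928 bp. MpGARP3 (Mp4g01560), named for the GARP family of transcription factors, had 663 bp (22.2%), and Mp8g08370 651 bp. MpRLK-Pelle_L-LEC10 (Mp4g21360), named as a receptor-like kinase, had 598 bp (14.2%). Mp7g01180 had 527 bp, from homology-based TE_00000379 copies, the only gene of these 10 with no structure-based sequence. MpC2HDZ (Mp2g24200), named for the homeodomain-leucine zipper factors of class II, had 474 bp (18.7%). In introns Mp1g02660, with 1681 bp, followed Mp3g03790, and next came Mp8g18080 (1179 bp), Mp5g09420 (1060 bp) and Mp7g05790 (798 bp).

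In 11 autosomal genes at least 50% of the exonic bp was DTT sequence. Of these, 8 were genes of 72 or 73 bp with no coding sequence, and each lay wholly inside a copy of TE_00000349. They were Mp2g02195a, Mp2g22075a, Mp2g22535a, Mp3g18945a, Mp4g04293c, Mp6g13685a, Mp6g19005a and Mp8g10758a. The median length of TE_00000349 copies was 83 bp, so that most of these copies extended only a few bp beyond the gene. The files do not say what kind of RNA these genes encode. The 3 coding genes were Mp8g18080, Mp4g23060, a single exon of 225 bp wholly inside a TE_00000390 copy, and Mp2g16870, with 366 of 682 exonic bp (53.7%).

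Chromosome V carried more DTT sequence per length than any autosome, and the difference lay in TE_00001142. DTT covered 1.29% of V against 0.289% ± 0.0613 (SD, n = 8; range 0.215% to 0.369%) of the autosomes, a ratio of 4.47. Most of these bp carried a second label: other superfamilies claimed 87.8% of the DTT bp on V and 71.2% on the autosomes. Counting only bp that no other superfamily claimed, DTT covered 0.157% of V and 0.0835% ± 0.0233 of the autosomes. Elements other than DTT were also denser on V, with 61.6% against 23.8% ± 2.66 of the autosomes, a ratio of 2.59. By superfamily the ratio was 3.06 for DTC and 1.18 for DTM, and DTA covered less of V (0.235%) than of the autosomes (0.477% ± 0.0807). There were 14.8 copies per Mb on V and 3.62 ± 0.738 on the autosomes. V lay outside the autosomal range in cover by all DTT bp and in copies per Mb (exact 2-sided permutation p = 0.111 for each). This is the smallest p that 9 chromosomes allow, so that no difference of V could pass 0.05. TE_00001142 alone covered 1.26% of V and 0.235% ± 0.0427 of the autosomes, a ratio of 5.35. The other families covered 0.0391% of V, within the autosomal range of 0.0285% to 0.0784% (0.0545% ± 0.0197; exact permutation p = 0.889). In copies per Mb they were more frequent on V, with 2.78 against 1.32 ± 0.383 (exact permutation p = 0.111).

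**Figure D5:**
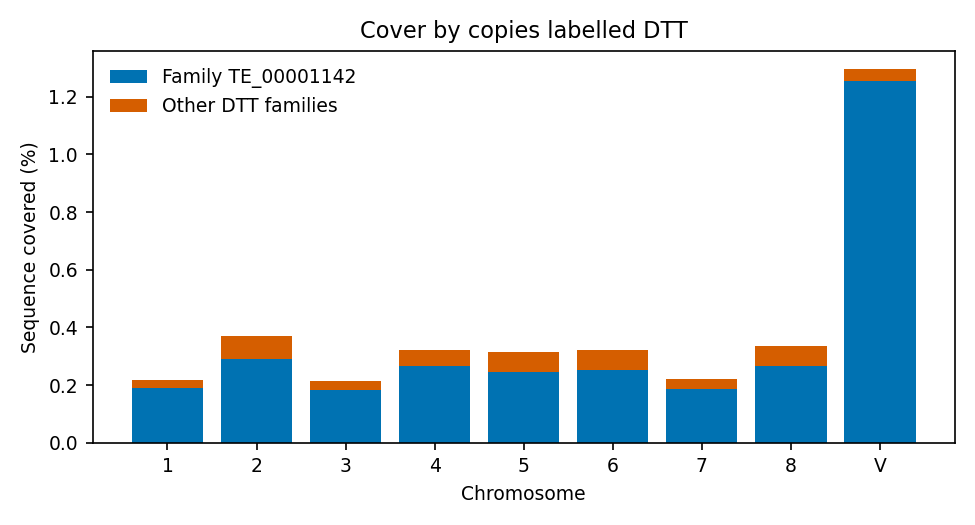
Percent of each chromosome covered by copies labelled DTT, with bars stacked for TE_00001142 and the other families. The 8 autosomes lie between 0.215% and 0.369% and V at 1.29%, of which TE_00001142 makes up 1.26%.

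V had only 3 of the families. TE_00001142 supplied 91 of the 112 copies and 97.0% of the bp, TE_00000698 19 copies and 2.80%, and TE_00000390 2 copies. The median length of TE_00001142 on V, 1339 bp, lay within the autosomal range (exact permutation p = 0.556). Its copies were again gathered in 1 place, with 70 of 91 (76.9%) between 6000001 and 7000000, a stretch that made up 13.3% of V and held 7 genes. The stretch was centred at 86.2% of the length of V, against 38.1% to 65.6% on the autosomes. Elements other than DTT covered 82.3% of it and 61.6% of V. Since this stretch too was chosen for its TE_00001142 copies, the entries that share their bases raise its cover by construction. No DTT copy on V touched an exon, while 20 of the 112 lay in introns. Introns held 9.21% of the DTT bp of V against 1.87% ± 1.35 on the autosomes (exact permutation p = 0.111). A higher intron share on V was general: elements other than DTT had 27.3% there against 2.03% ± 0.313, DTC 27.9%, and DTA and DTM 18.1% each, so that DTT had the lowest share of these on V. For TE_00001142 the values were 7.69% on V and 0 on each of the 8 autosomes. For the other families they were 58.0% on V and 11.6% ± 9.97 on the autosomes. The V genes with most intronic DTT sequence were MpVg00615 with 2541 bp in a span of 501799 bp, MpVg01095 with 1848 bp in 486612 bp, MpVg00928 with 1636 bp, MpVg00835 with 1346 bp and MpVg00785 with 751 bp.

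Genes of DNA methylation, small RNA and histone methylation were examined because the series concerns silencing of elements. None of the 8 matched DNA methylation genes had DTT sequence in an exon, an intron or the adjoining 1 kb, nor did any of the 8 matched small RNA genes or the 2 histone methylation genes. Among all 18134 autosomal coding genes 106 had such sequence (0.585%), so that a count of 0 in lists of this size carries no information about the lists. The nearest DTT copy lay 583 kb from MpMET (Mp6g18180), the gene after which Mpmet-3 is named, and belonged to TE_00000698. The chromatin remodeller MpDDM1 (Mp4g12200) was 13.0 kb from a TE_00001142 copy. MpDNMT3b (Mp5g09290), a methyltransferase of the DNMT3 type, was 7545 bp from a TE_00000786 copy, the shortest distance in the lists.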

How the data were processed

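The 2 deposited files were GTF annotations of assembly MpTak1 v5.1 revision 2 of Tak-1, per their names. The values used are other than expression: genome positions in bp, counted from 1, as deposited by the authors. The element file names EDTA as the source of every row, with no version, and the sources used here do not say how the gene models were made. Trim Galore and STAR are named in the submitters' processing notes, with no version. No library value was analysed, so depth is unknown.

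The members and the gene lists were chosen with earlier results of these data known. A gene was the span of its exon rows, and a base in any exon counted as exonic. Sequence length was the last feature end over both files. Each base was counted once where copies overlapped. Copies outside genes overlapped no gene span. DTT was compared with other elements on the same autosome by an exact 2-sided sign-flip permutation test over 8 autosomes, adjusted by Benjamini and Hochberg over 24 tests (threshold 0.05), and again over 24 tests for each family split. V was set against the autosomes by an exact 2-sided permutation test over 9 chromosomes, unadjusted. Chromosomes of 1 genome are not plants, so no p-value speaks of variation between plants.

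Named were the 10 families with most bp, the 10 longest copies, the 3 largest runs, the 10 genes with the highest exonic and the 5 with the highest intronic DTT bp; the list genes and other names given were chosen after values were seen. Gene symbols were read from a table of assembly MpTak2 v7.1, the female line, and paired by locus number (17624 genes) and by gene length within 5% (16479 genes). No genome sequence of this build was used. Functions were tested on simulated intervals. Python 3.11.15, numpy 2.4.6, pandas 2.3.3 and matplotlib 3.10.9 were used. Alternatives were coding genes only, copies of at least 200 bp, homology-based copies, copies free of other superfamilies, other flanks, joined copies, other distances to LTR copies, 10 parts per autosome in place of 5, single autosomes left out, medians, and the group without TE_00001142, which was chosen after seeing the data.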

Additional observations from a re-analysis of the deposited data

Results flagged for a closer look

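Copies outside the group carried labels close to it. On the autosomes 45 copies of a single entry, TE_00000167, were labelled TIR/Tc1_Mariner and covered 33.2 kb, with a median length of 513 bp, the longest 1930 bp. They were on 8 of 8 autosomes, 4 more lay on V, and none overlapped a DTT copy or lay within 100 bp of TE_00001142. A further 9 copies were labelled MITE/DTT, covered 2960 bp and had a median length of 299 bp. None of these 9 overlapped a DTT copy and none lay on V. Both labels name the same superfamily, so a count of Tc1/Mariner elements by label depends on which labels are taken. In the comparisons above they were counted among the other elements. They were singled out because no comparison examined them by themselves. By Dixon's criterion for 8 values, no autosome stood apart from the others in any of the 10 DTT measures examined.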

How the results depend on the processing

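Values here are differences, DTT minus the elements compared, averaged over 8 autosomes, in percentage points for shares and in bp for lengths and distances. Before any change, 12 of the 24 tests passed. With coding genes only, 3 calls were lost: near gene starts against DTA (-5.23) and DTM (-3.19) and distance to genes against DTA (2284). With copies of at least 200 bp the same 3 were lost (-5.02, -4.09 and 2759), the clustering ratio turned against DTA (-0.239) and DTM (-0.210), and its difference from DTC passed (-0.269). With homology-based copies only, DTT passed against other elements in exons (-2.33), introns (-1.42) and outside genes (3.75), turned against DTA in exons (-1.65) and passed against DTM in distance (1762). With copies free of other superfamilies, the signs against other elements turned in exons (8.82), introns (5.71), outside genes (-14.5) and length (-137.1). Length also turned against DTA (-118.4), DTC (-86.2) and DTM (-67). Exons passed against DTA (10.4) and turned against DTC (1.07) and DTM (4.19). Gene starts turned against DTC (0.594) and lost the call against DTA (-2.53) and DTM (-1.65), and distance turned against DTC (-177.7) and lost the call against DTA (618). A flank of 500 bp turned the differences from other elements at gene starts (-0.330) and ends (-0.757), neither of which passed. A flank of 2 kb lost gene starts against DTA (-10.1) and DTM (-7.53), and joining copies at most 100 bp apart lost clustering against DTA (0.0333).

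Without TE_00001142, the signs against other elements turned in exons (11.2), introns (9.61), outside genes (-20.8) and length (-182), and distance passed (-2333). Length turned against DTA (-123), DTC (-130.1) and DTM (-79.7), and exons against DTC (6.34) and DTM (6.98). Gene starts turned against DTC (0.765) and lost the call against DTA (-3.69) and DTM (-1.84). Distance turned against DTC (-853) and lost the call against DTA (405). Clustering turned against DTC (0.329) and passed against DTM (0.499), nearness to LTR copies turned (-6.44), and the outer parts were no longer lower by the test (-0.0114). The difference of V from the autosomes turned in cover (-0.0154) and length (-9.12), the clustering ratio became 0.890, and the mean cover 0.0545%, or 0.0835% when only bp free of other superfamilies were counted for all families.

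With the median of the 8 differences as the statistic, the exact permutation test cannot give a p below 0.0625, so no call could pass and the test is void. All 12 calls had that p (adjusted 0.115) and kept their signs, with medians as follows: length against other elements (238), DTA (293), DTC (297) and DTM (353), gene starts against DTA (-4.84) and DTM (-4.09), distance (2562) and clustering (0.128) against DTA, exons against DTC (-5.77) and DTM (-5.00), LTR copies (44.4) and outer parts (-0.661). The signs turned outside genes against other elements (-0.0626) and in exons against DTA (-0.172). Leaving out 1 autosome at a time, the ranges were -0.473 to 0.139 for introns, -0.0207 to 1.24 outside genes and -0.00706 to 1.15 at gene starts against other elements. Against DTA they were -0.392 to 0.598 in exons, -6.52 to -4.55 at gene starts, 1755 to 2259 in distance and 0.123 to 0.208 in clustering, and against DTM -4.57 to -3.15 at gene starts. The other 8 calls passed without any 1 autosome. Apart from settings that removed copies or autosomes by construction, the cause of these changes was not tested. No paired analysis was possible because the libraries that share replicate numbers have no values in the files; the pairs in the tests above are element sets on the same autosome.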
